A study of Mus musculus with 18 samples.

Results

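Peaks at the loci of 4 p53 target and DNA damage genes, Cdkn1a, Mdm2, Btg2 and Gadd45a, were described across ATAC-seq libraries of mouse embryonic stem (ES) cells. A member is a region, made by merging overlapping peaks of all libraries, that overlaps a fixed window of the mm9 genome build around one of the genes: chromosome 17 from 29200000 to 29260000 (Cdkn1a, 60 kb), chromosome 10 from 117100000 to 117175000 (Mdm2, 75 kb), chromosome 1 from 135945000 to 136000000 (Btg2, 55 kb) or chromosome 6 from 66960000 to 67010000 (Gadd45a, 50 kb). The windows were set by position and used no measured value. They held 96 of the 377189 regions of the series: 21 at Cdkn1a, 39 at Mdm2, 18 at Btg2 and 18 at Gadd45a.

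ATAC-seq marks open DNA by transposase insertion, and each of the 18 libraries gave 1 list of peaks. The design asks whether inhibiting topoisomerase II (TOP2) or deleting a subunit of the BAF chromatin remodelling complex changed which sites were open. Wild-type cells received the catalytic TOP2 inhibitor ICRF-193 at 1 µM, or its solvent DMSO, over 24 h (2 libraries a group) or over 1 h (3 libraries a group; these were placed by title, as the protocol text mentions 24 h alone). The conditional knockout lines, Brg1 fl/fl and Baf53a fl/-, both carry Actin-CreER, a Cre recombinase that tamoxifen activates. They were kept for 24 h in tamoxifen (0.8 µM) or in ethanol, followed by 48 h of fresh medium (2 libraries a group). Brg1 is the ATPase of BAF, and Baf53a is an actin-related subunit. By the labels, the ethanol controls of the Baf53a line already lack 1 allele of that gene, so the deletions in the 2 lines would not start from matched genotypes. The names of its deposited lists read flfl instead, and the genotype was not checked in these data. Viable cells were sorted before transposition, and replicates were passages of the same cells, so errors cover the spread between passages and libraries.

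The p53 protein is a transcription factor that is stabilised when DNA is damaged and then activates genes that halt the cell cycle, repair DNA or start cell death. Cdkn1a encodes p21, an inhibitor of cyclin-dependent kinases that holds cells in G1. Mdm2 encodes the ubiquitin ligase that marks p53 itself for degradation and so closes a negative feedback loop. Btg2 encodes an antiproliferative protein that binds the CCR4-NOT deadenylase complex, and Gadd45a encodes a small stress protein that binds PCNA and p21 and acts in growth arrest and repair. ICRF-193 inhibits TOP2 without trapping it on broken DNA as poisons such as etoposide do. p53 binds DNA as a tetramer on paired half-sites of 10 bases, and many of its targets hold such a site near the promoter or in the first intron.

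The promoter windows of the 4 genes are shown because they are what the loci are named for, and to show the letters a p53 site could use. Each runs from 250 bases before to 50 after a transcription start, in the sense of the gene (RefSeq, build GRCm38.p6), and 1 window of each gene is printed. Capitals mark matches to the consensus p53 half-site in Cdkn1a, Mdm2 and Gadd45a, and the cAMP response element TGACGTCA in Btg2.
Cdkn1a window 1: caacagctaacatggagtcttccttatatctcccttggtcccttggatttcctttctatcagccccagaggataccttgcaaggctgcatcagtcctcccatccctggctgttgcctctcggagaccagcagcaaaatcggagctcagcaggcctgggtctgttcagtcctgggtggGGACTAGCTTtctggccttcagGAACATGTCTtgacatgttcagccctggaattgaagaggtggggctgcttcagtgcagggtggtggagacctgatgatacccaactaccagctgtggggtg
Mdm2: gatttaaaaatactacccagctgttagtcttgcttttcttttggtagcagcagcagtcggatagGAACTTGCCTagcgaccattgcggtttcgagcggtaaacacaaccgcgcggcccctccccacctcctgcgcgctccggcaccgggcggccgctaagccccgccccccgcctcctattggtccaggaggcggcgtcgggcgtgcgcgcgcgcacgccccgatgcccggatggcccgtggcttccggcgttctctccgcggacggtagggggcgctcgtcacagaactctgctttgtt
Btg2: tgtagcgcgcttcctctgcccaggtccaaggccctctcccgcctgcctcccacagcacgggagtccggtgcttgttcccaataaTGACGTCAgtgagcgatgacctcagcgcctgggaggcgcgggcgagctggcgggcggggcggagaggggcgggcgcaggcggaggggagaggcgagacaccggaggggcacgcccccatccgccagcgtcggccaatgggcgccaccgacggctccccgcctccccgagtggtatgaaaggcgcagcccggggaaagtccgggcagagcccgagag
Gadd45a: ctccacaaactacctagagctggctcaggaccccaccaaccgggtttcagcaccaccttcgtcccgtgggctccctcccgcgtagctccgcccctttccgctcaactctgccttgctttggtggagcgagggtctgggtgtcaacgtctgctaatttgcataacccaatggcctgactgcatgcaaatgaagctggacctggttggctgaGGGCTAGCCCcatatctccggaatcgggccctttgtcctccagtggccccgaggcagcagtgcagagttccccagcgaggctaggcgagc
A search on both strands found 2 half-site matches in this Cdkn1a window, whose first bases lay 73 and 51 bases before the start. It found 1 match in the Mdm2 window (186 bases before) and 1 in the Gadd45a window (40 bases before). No match lay in the Btg2 window or in a second Cdkn1a window. Of all 32851 promoter windows of this length, 2745 (8.36%) held a match. The response element in Btg2 lay 166 bases before the start and occurs in 1.79% of windows. The GC box GGGCGG, found in 35.7% of windows, was matched 3 times in Btg2, 2 times in Mdm2, 2 times in the second Cdkn1a window and 1 time in Gadd45a. A match describes letters and is not a measured binding site. The windows and the mm9 peaks are on different builds, so no peak was assigned to a promoter, exon or intron. In the RefSeq gene order Cdkn1a lies between Srsf3 and Rab44, Mdm2 between Cpm and Slc35e3, Btg2 between Fmod and Chit1, and Gadd45a between Gng12 and Serbp1.

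The files give positions and a score for each peak. The score has no stated unit, no read counts are given, and read depth is unknown. Lists ran from 46431 to 129880 peaks. The shortest were Brg1 tamoxifen replicate 2 (46431), ICRF-193 1 h replicate 2 (50611) and DMSO 1 h replicate 2 (58532), and a weak site is more often missing from a short list. The score was therefore read on 2 scales: its percentile within the whole list, and, for the 18061 regions that hold a peak in all 18 lists, its percentile among those common regions (the place of a region), which has the same number of regions in every list.

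Few sites of the 4 loci were open in every library. Of the 96 regions, 10 (10.4%) were present in every one of the 18 lists and 45 (46.9%) in a single list, against 4.79% and 54.9% of all regions. Btg2 had 4 of these 10 common regions and each of the other loci had 2. The regions with a peak in 1 library numbered 10 at Cdkn1a, 16 at Mdm2, 9 at Btg2 and 10 at Gadd45a. The common members were narrower than common regions in general, with a median width of 730 bp against 915 bp.

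**Figure D1:**
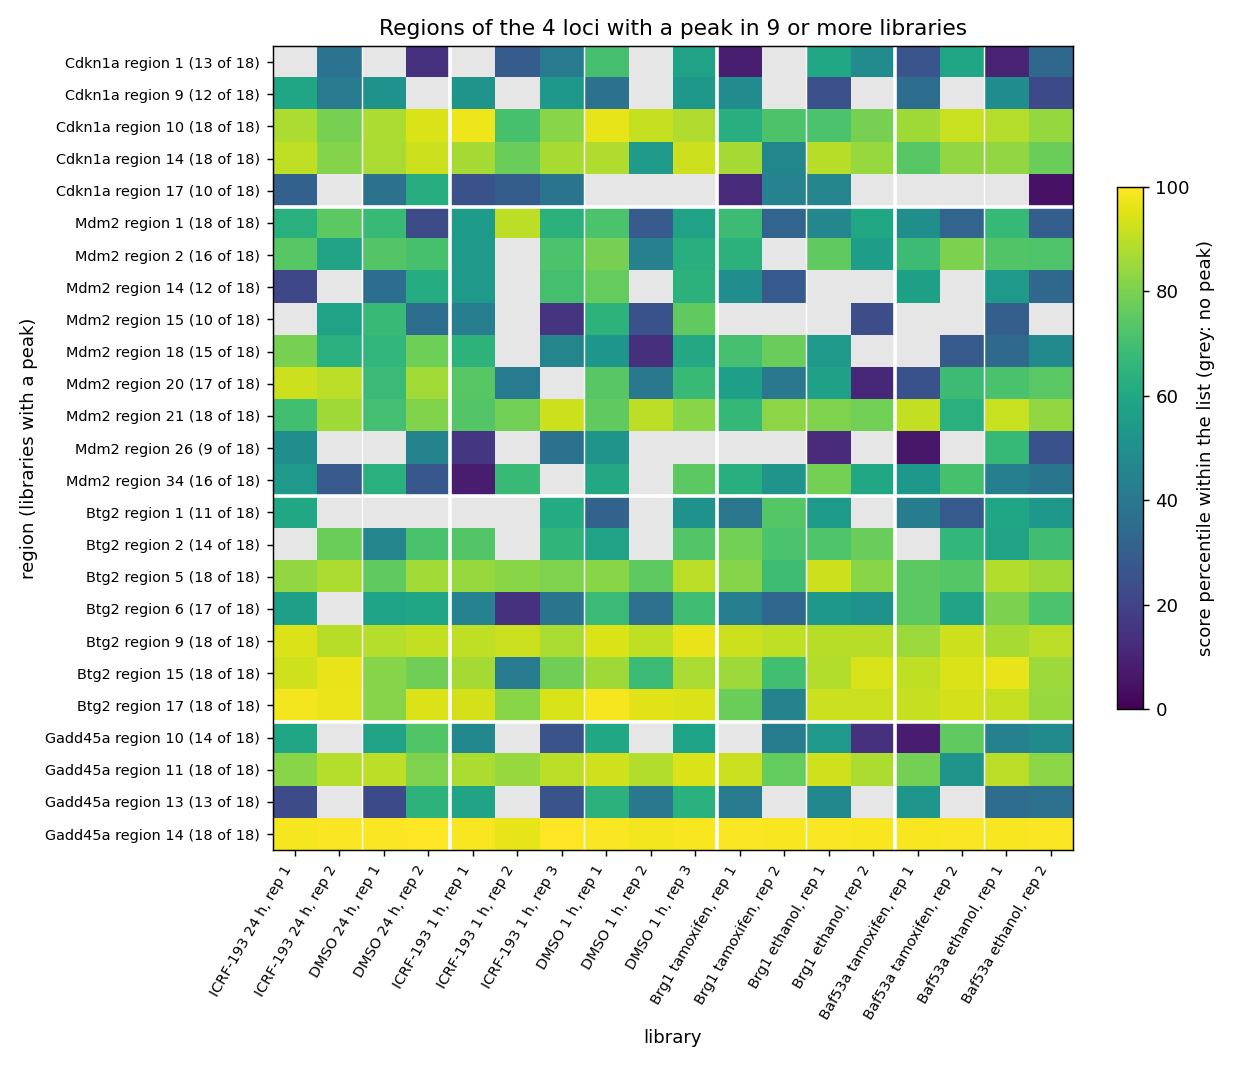
Score percentile within the list (colour, 0 to 100; grey, no peak) for the 25 regions of the 4 loci with a peak in 9 or more libraries (rows, by locus and position) in the 18 libraries (columns, each perturbed group left of its control). Gadd45a region 14 is in the top 4% of every list (96.2 to 99.8), and grey cells are most frequent in the replicate 2 columns of the 1 h experiment.

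At Gadd45a, 1 region stood above all other members. Region 14 (chromosome 6 from 66987037 to 66987805) had a list percentile of at least 96.2 in each library. Its place among common regions was 92.6 and 98.0 in ICRF-193 24 h libraries, against 97.5 and 97.5 in DMSO 24 h libraries. In the 1 h experiment it was 95.2, 89.9 and 98.8 with ICRF-193 and 95.1, 94.6 and 93.6 with DMSO. It stood at 97.6 and 97.7 in Brg1 tamoxifen and 97.7 and 94.8 in Brg1 ethanol libraries. The Baf53a line had 95.4 and 97.3 with tamoxifen and 95.2 and 97.1 with ethanol. The site was thus among the strongest of each list whatever the cells received, and perturbed and control values overlapped in all 4 experiments.

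Gadd45a region 11 (from 66980219 to 66981037), the other common region of the locus, was of middle strength. Its place was 25.5 and 5.68 in Baf53a tamoxifen libraries, against 49.4 and 36.6 in Baf53a ethanol libraries. The groups did not overlap, both tamoxifen libraries being lower. The change in normal score (the place written on the scale of a standard normal distribution) was -0.94 (SE 0.39, 95% interval -1.77 to -0.12), with a limma adjusted p of 0.6535. It was -0.47 without Baf53a tamoxifen replicate 2 and -1.39 without tamoxifen replicate 1. In the Brg1 line the place was 64.6 and 47.1 with tamoxifen and 64.7 and 52.0 with ethanol, and in the ICRF-193 24 h experiment 32.7 and 59.8, against 55.5 and 22.0 in DMSO. At 1 h it was 46.0, 61.9 and 55.1 with ICRF-193 and 59.0, 66.7 and 66.6 with DMSO. The groups overlapped in these 3 experiments.

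At Btg2 the common regions were 5 (chromosome 1 from 135957328 to 135958054), 9 (135975021 to 135976251), 15 (135989219 to 135990634) and 17 (135995644 to 135996376). Region 17 had the widest swing between groups of the members that every list held. Its place was 90.5 and 88.9 in ICRF-193 24 h libraries, against 32.3 and 68.2 in DMSO 24 h libraries. It was 23.0 and 13.5 in Brg1 tamoxifen libraries, against 60.5 and 66.6 in Brg1 ethanol libraries. The groups did not overlap in either experiment, and the directions were opposite: higher with ICRF-193 for 24 h and lower after Brg1 deletion. In the Baf53a line it was 60.6 and 70.7 with tamoxifen, against 55.4 and 41.8 with ethanol. At 1 h, ICRF-193 libraries had 67.9, 57.1 and 70.8 and DMSO libraries 91.8, 86.0 and 65.7, which overlapped.

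None of these differences of Btg2 region 17 passed the test over all common regions. The change in normal score was -1.27 (SE 0.38) after Brg1 deletion, with a limma adjusted p of 0.0962. It was 1.26 (SE 0.38) with ICRF-193 for 24 h, with a limma adjusted p of 0.2979, and without DMSO 24 h replicate 1 it was 0.79. The difference between the Brg1 and Baf53a effects was -1.71 (SE 0.54, limma adjusted p 0.4084). The difference between the 24 h and 1 h effects of ICRF-193 was 1.82 (SE 0.49, limma adjusted p 0.5509). Brg1 tamoxifen replicate 2 is the shortest list of the series, and without it the Brg1 value was -0.92. Within whole lists region 17 stood at the percentiles 77.5 and 44.6 in Brg1 tamoxifen libraries, against 91.9 and 92.1 in Brg1 ethanol libraries.

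Btg2 region 15 was placed at 65.1 and 87.3 in ICRF-193 24 h libraries, against 32.3 and 18.3 in DMSO 24 h libraries, with no overlap. The change was 1.44 (SE 0.42), the largest at 24 h among the common members, and its limma adjusted p was 0.2923. At 1 h the places overlapped, at 42.5, 10.3 and 25.6 with ICRF-193 and 31.7, 28.6 and 36.4 with DMSO. The difference between the 24 h and 1 h effects was 1.68 (SE 0.55, limma adjusted p 0.6041). In the Brg1 line the place was 40.3 and 37.1 with tamoxifen, against 47.4 and 73.7 with ethanol, a change of -0.57 (SE 0.42) with no overlap. In the Baf53a line it was 57.7 and 75.1 with tamoxifen and 80.6 and 44.1 with ethanol, which overlapped.

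Btg2 regions 5 and 9 varied less. Region 9 had list percentiles from 84.9 to 96.9 over the 18 libraries. Its place was 73.9 and 61.4 in ICRF-193 24 h libraries, against 52.0 and 51.7 in DMSO 24 h libraries, and 65.8 and 75.9 in Brg1 tamoxifen libraries, against 50.8 and 56.4 in Brg1 ethanol libraries. Both perturbed groups lay above their controls without overlap, with changes of 0.42 (SE 0.36) and 0.46 (SE 0.36) and limma adjusted p of 0.7858 and 0.628. At 1 h region 9 stood at 55.9, 79.0 and 46.8 with ICRF-193 and 67.0, 72.3 and 79.7 with DMSO, and in the Baf53a line at 39.7 and 65.8 with tamoxifen and 39.3 and 57.2 with ethanol, with overlap in both.

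Btg2 region 5 stood at 18.4 and 21.1 in Baf53a tamoxifen libraries, against 45.3 and 45.7 in Baf53a ethanol libraries, a change of -0.74 (SE 0.36, limma adjusted p 0.7108). After Brg1 deletion it was 31.5 and 35.9, against 63.2 and 36.8 in ethanol, and with ICRF-193 for 24 h 36.1 and 56.2, against 19.8 and 35.1 in DMSO. The groups did not overlap in these 3 experiments, with tamoxifen libraries lower and ICRF-193 libraries higher than their controls, in the last 2 by a narrow margin. At 1 h the places of region 5 overlapped, at 37.3, 57.0 and 30.2 with ICRF-193 and 23.5, 38.2 and 44.4 with DMSO. Regions 9 and 17, on the same locus, thus stood on opposite sides of their controls after Brg1 deletion. Whether they differ from each other was not tested.

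At Cdkn1a, the common regions were 10 (chromosome 17 from 29217753 to 29218419) and 14 (from 29230333 to 29230868). Region 10 was placed at 47.4 and 38.0 in ICRF-193 24 h libraries, against 48.4 and 67.1 in DMSO 24 h libraries. Both ICRF-193 libraries lay just below both DMSO libraries, a change of -0.39 (SE 0.50, 95% interval -1.44 to 0.66) with a limma adjusted p of 0.8704. At 1 h ICRF-193 libraries had 85.9, 37.3 and 33.7 and DMSO libraries 76.8, 73.2 and 39.1, which overlapped. In the knockout lines the place was 8.11 and 40.1 in Brg1 tamoxifen and 12.8 and 30.8 in Brg1 ethanol libraries, and 42.3 and 63.9 in Baf53a tamoxifen and 46.0 and 40.8 in Baf53a ethanol libraries.

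Cdkn1a region 14 had places of 57.0 and 41.1 in ICRF-193 24 h libraries, against 47.1 and 57.8 in DMSO 24 h libraries, a change of -0.09 (SE 0.41, 95% interval -0.94 to 0.76). The groups overlapped. After Brg1 deletion it stood at 43.6 and 14.4, against 51.0 and 43.0 in ethanol (change -0.54, SE 0.41, limma adjusted p 0.6182). The lower value came from the shortest list, and the groups met at 43.6 and 43.0. At 1 h region 14 had 43.0, 48.0 and 46.0 with ICRF-193 and 39.7, 14.3 and 56.8 with DMSO, and in the Baf53a line 17.4 and 40.0 with tamoxifen and 30.3 and 26.7 with ethanol, with overlap in both. Neither of the common Cdkn1a sites was placed higher on average with the TOP2 inhibitor at 24 h, and the upper ends of the intervals were 0.66 and 0.76 in normal score.

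At Mdm2, the common regions were 21 (chromosome 10 from 117147462 to 117148158) and 1 (from 117099787 to 117100341, which reaches over the edge of the window). Region 21 was placed at 13.4 and 51.1 in ICRF-193 24 h libraries, against 13.9 and 23.0 in DMSO 24 h libraries. In the Brg1 line it stood at 10.7 and 58.8 with tamoxifen and 26.2 and 29.5 with ethanol. Values overlapped in both, and the spread was wide throughout, from 10.7 to 70.4 over the 18 libraries. At 1 h it was 15.9, 50.7 and 65.7 with ICRF-193 and 12.5, 70.4 and 22.9 with DMSO, and in the Baf53a line 58.7 and 11.2 with tamoxifen and 56.4 and 40.2 with ethanol, again with overlap.

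Mdm2 region 1 was the weakest common member, with a mean place of 10.6. It stood at 8.52 and 29.4 in ICRF-193 24 h libraries, against 10.7 and 0.102 in DMSO 24 h libraries, at 12.3 and 7.55 in Brg1 tamoxifen libraries, against 1.63 and 7.53 in Brg1 ethanol libraries, and at 2.63 and 1.63 in Baf53a tamoxifen libraries, against 6.02 and 0.891 in Baf53a ethanol libraries. Its 1 h change of 0.93 (SE 0.52, limma adjusted p 0.9059) rested on ICRF-193 replicate 2, at 74.1 against 4.08 and 9.46 in the other ICRF-193 libraries and 8.63, 3.46 and 2.16 in DMSO 1 h libraries. It was 0.21 without that library.

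**Figure D2:**
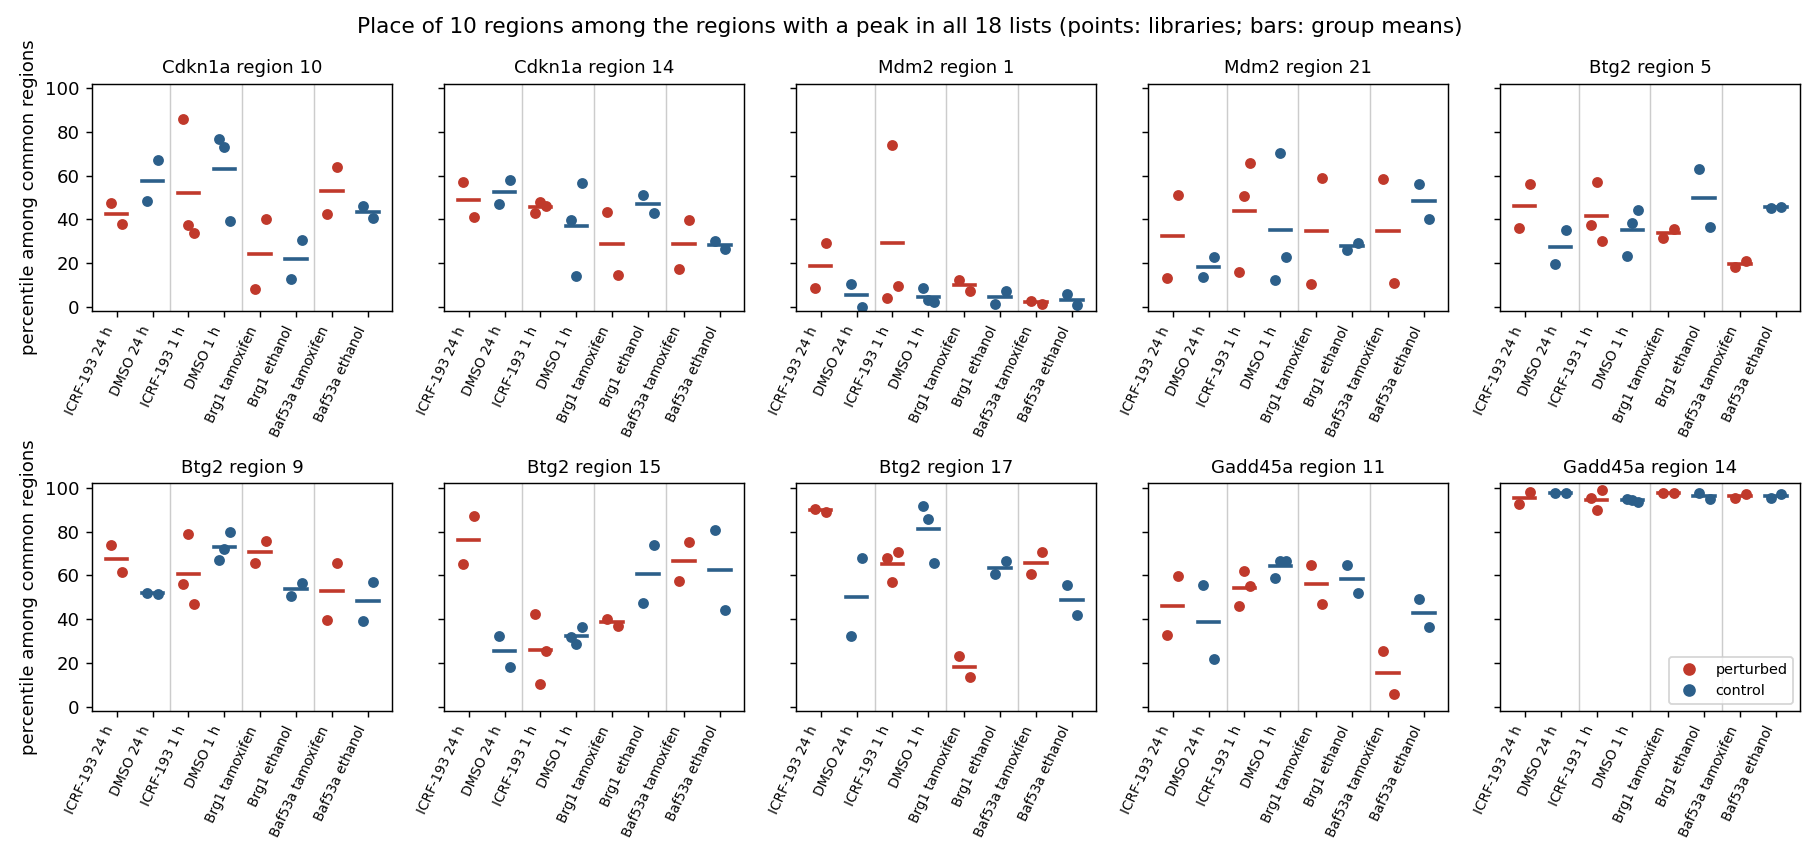
Place (percentile, 0 to 100) of the 10 common regions of the 4 loci among the 18061 regions with a peak in all 18 lists, by group; points are libraries, bars are group means, and each perturbed group (red) is left of its control (blue). Btg2 region 17 is high with ICRF-193 for 24 h (88.9 and 90.5) and low in Brg1 tamoxifen libraries (13.5 and 23.0), while Gadd45a region 14 stays above 89 throughout.

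The test over all common regions called 0 of the 10 members in each contrast and in each difference of contrasts (limma, Benjamini-Hochberg adjusted). With ICRF-193 for 24 h, 5 of the 18061 common regions (0.0277%) were called, and 2 members had an unadjusted p under 0.05. The 1 h experiment gave 0 called common regions (0%) and 0 members with such a p. After Brg1 deletion 426 (2.36%) were called and 1 member had such a p, and after Baf53a deletion 2 (0.0111%) and 1 member. For the difference between ICRF-193 at 24 h and 1 h, 0 regions (0%) were called, with 2 members at an unadjusted p under 0.05, and for Brg1 against Baf53a 0 regions (0%) and 1 member. At these background rates 0 of 10 lies near what the common regions as a whole show, and is no result about the members. Of the 18061 common regions, an unadjusted p under 0.05 was held by 1635 at 24 h and 1017 at 1 h. It was held by 2463 after Brg1 deletion and 1278 after Baf53a deletion. For the differences the counts were 1237 (24 h against 1 h) and 1272 (Brg1 against Baf53a). The members with such a p are to be read against these counts.

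The median change of the 10 common members was 0.39 with ICRF-193 for 24 h, where 7 of 10 were positive, against 0.03 over all common regions. Single libraries moved it, to 0.12 without ICRF-193 24 h replicate 2 and to 0.67 without ICRF-193 24 h replicate 1. The median was -0.05 (5 of 10 positive) at 1 h, against 0.002. After Brg1 deletion it was -0.03 (4 of 10 positive), against 0.09, and after Baf53a deletion -0.001 (5 of 10), against 0.01. With 1 library left out at a time these ran from -0.09 to 0.01 at 1 h, from -0.17 to -0.03 after Brg1 deletion and from -0.25 to 0.23 after Baf53a deletion. At 24 h all 6 Btg2 and Mdm2 regions were positive and both Cdkn1a regions negative, though none of these changes passed the test. Each reported median rests on 10 regions of the same libraries, and no test was made on it. Leaving out a library also changes the common set, which held 11 members without ICRF-193 24 h replicate 2 or ICRF-193 1 h replicate 3. The move to 0.12 thus goes with a change of regions as well as of libraries.

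**Figure D3:**
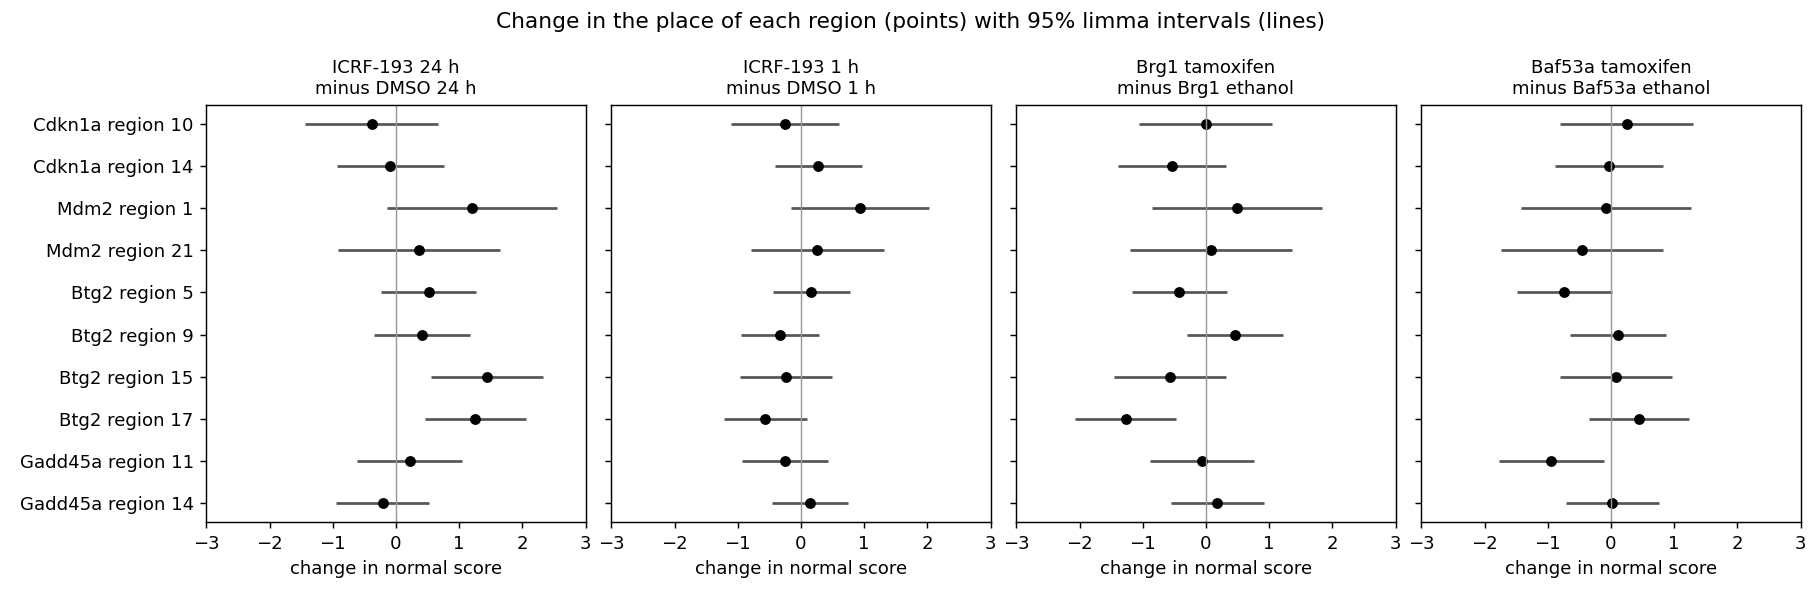
Change in normal score (perturbed minus control) of the 10 common regions in the 4 contrasts; points are limma estimates, lines their 95% intervals, and the grey line is 0. The intervals leave out 0 for Btg2 regions 15 and 17 with ICRF-193 for 24 h (1.44 and 1.26), Btg2 region 17 after Brg1 deletion (-1.27) and Gadd45a region 11 after Baf53a deletion (-0.94, and -0.47 without tamoxifen replicate 2), before adjustment for the 18061 regions tested.

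Weaker sites came and went between libraries. A region was counted as lost when all control libraries and no perturbed library held a peak, and gained in the reverse case. With ICRF-193 for 24 h, 2 of the 24 members shared by the DMSO libraries were lost (8.33%), where 15.5% of all such regions were, and 2 of 18 shared by the ICRF-193 libraries were gained (11.1%), where 5.46% of all were. With ICRF-193 for 1 h, 0 of 17 were lost (2.28% of all) and 1 of 12 was gained (8.33%, against 0.375% of all). After Brg1 deletion 1 of 18 was lost (5.56%, against 23.9% of all) and 1 of 18 gained (5.56%, against 4.97%). After Baf53a deletion 1 of 24 was lost (4.17%, against 11.2%) and 0 of 19 gained (5.49% of all). The smallest exact permutation p is 0.3333 for 2 against 2 libraries and 0.1 for 3 against 3, so no test was made.

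The lost and gained members had median list percentiles from 18.3 to 53.9. The rule asks for absence from every list of a group and so favours weak sites, which makes low values no separate finding. At Mdm2, region 9 (from 117119685 to 117119978) had a peak in neither ICRF-193 24 h library and in both DMSO 24 h libraries (15.8 and 24.5), and in neither Brg1 tamoxifen and both Brg1 ethanol libraries (11.5 and 43.7). At 1 h it had a peak in 0 of 3 ICRF-193 libraries and 2 of 3 DMSO libraries (48.5 and 65.3), and in the Baf53a line in 1 library of each group (26.5 with tamoxifen and 59.7 with ethanol). Of its 8 peaks, 7 lay in control libraries. The rule for lost regions fixed those of the 24 h and Brg1 experiments, and the longest list of each experiment was a control. Mdm2 region 10 (from 117119994) starts just past the end of region 9, and its only peak was in a Brg1 tamoxifen library (29.4). The loss of region 9 in the Brg1 line thus rests on where the merged regions end. Mdm2 region 7 (from 117113929 to 117114331), also lost with ICRF-193 at 24 h, had 5 peaks, 2 of them in perturbed libraries.

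Mdm2 region 13 (from 117124590 to 117124883) was gained with ICRF-193 for 24 h, at list percentiles of 52.5 and 70.7, with 3 further peaks among the other experiments. Mdm2 region 14 (from 117125390) was gained after Brg1 deletion, at 48.9 and 28.5 in Brg1 tamoxifen libraries, but held a peak in 12 of 18 libraries and in every group other than Brg1 ethanol. At Cdkn1a, region 13 (from 29227770 to 29227940) held a peak in both ICRF-193 24 h libraries (18.3 and 4.43), neither DMSO 24 h library, and otherwise only Baf53a ethanol replicate 2 (38.3). Cdkn1a region 17 (from 29232386 to 29232782) held a peak in all 3 ICRF-193 1 h libraries (24.7, 29.4 and 38.4) and in 0 of 3 DMSO 1 h libraries. The 24 h experiment went the other way, with 1 of 2 ICRF-193 libraries (31.1) and both DMSO libraries (37.1 and 62.3). Gadd45a region 16 (from 66999032 to 66999408), lost after Baf53a deletion, had 4 peaks, at 1.36 and 30.4 in Baf53a ethanol libraries.

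Of the remaining sites, the strongest by median list percentile were these. At Mdm2, region 20 (from 117146952 to 117147340), next to region 21, was missing from 1 library and stood at 92.3 and 89.7 in ICRF-193 24 h libraries, against 68.2 and 86.2 in DMSO 24 h libraries. The ICRF-193 values were higher without overlap there. At 1 h region 20 stood at 73.9 and 41.5 in 2 ICRF-193 libraries and had no peak in the third, against 74.2, 40.0 and 67.2 with DMSO. Mdm2 region 2 (from 117100932) was held by 16 libraries at a median of 71.2 and region 18 (from 117134466) by 15 at 60.5. At Btg2, region 2 (from 135949740) was held by 14 at 71.4 and region 6 (from 135959438) by 17 at 56.6, and region 8 by 1 Brg1 tamoxifen library at 59.1. At Gadd45a, region 10 (from 66979552) was held by 14 at 50.8, region 13 (from 66986485) by 13 at 41.1 and region 5 (from 66965818) by 8 at 39.6. Region 5 had no peak in any of the 4 libraries of the Brg1 line. At Cdkn1a, region 9 (from 29215872) was held by 12 libraries at 48.3, while regions 15 and 19 each had 1 peak, at 49.3 in a Baf53a tamoxifen library and 49.9 in an ICRF-193 24 h library. All other regions with a peak in 1 library lay at list percentiles up to 59.9.

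Summed over a locus, the bases under peaks were scaled to megabases (Mb) of the list. Unscaled, a library held 0.633 to 2.20 kb under peaks at Cdkn1a (2 to 9 peaks), 1.30 to 4.17 kb at Mdm2 (6 to 16 peaks), 1.41 to 4.09 kb at Btg2 (6 to 11 peaks) and 0.757 to 2.55 kb at Gadd45a (2 to 7 peaks). The test fitted log2 of the scaled bases (250 bases added) over 18285 windows of 50 kb and the loci. The median change over all windows was 0.13 in the 24 h experiment, 0.10 in the 1 h experiment, 0.22 after Brg1 deletion and 0.04 after Baf53a deletion. Changes at the loci are to be read against those shifts.

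Mdm2 had the clearest difference in covered length. It held 121 and 123 bases per Mb of list in Brg1 tamoxifen libraries, against 80.4 and 81.5 in Brg1 ethanol libraries (means 122 ± 1.62 and 81.0 ± 0.77, SD, n = 2 each). In the Baf53a line it held 78.8 and 72.4 with tamoxifen, against 91.7 and 93.8 with ethanol (means 75.6 ± 4.55 and 92.8 ± 1.46). ICRF-193 24 h libraries held 139 and 120, against 92.8 and 91.7 in DMSO 24 h libraries (means 129 ± 13.4 and 92.2 ± 0.82). In all 3 experiments the groups did not overlap, with tamoxifen above ethanol in the Brg1 line, below it in the Baf53a line, and ICRF-193 above DMSO. The log2 changes were 0.61 (SE 0.27), -0.25 (SE 0.27) and 0.48 (SE 0.27), with limma adjusted p of 0.285, 0.9999 and 0.9368. The difference between the Brg1 and Baf53a changes was 0.86 (SE 0.39, limma adjusted p 0.7466).

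Without the scaling, which moves the loci and the median window alike, the median change over all windows was -0.44 in the Brg1 line and -0.28 in the 24 h experiment. Unscaled, the locus held 2980 and 1426 bases under peaks in Brg1 tamoxifen libraries, against 2376 and 1982 in Brg1 ethanol libraries, which overlapped, and the log2 change was -0.06. The sign at Mdm2 thus turned. Its change stood 0.39 above that of the median window, a distance that the scaling cannot alter because it shifts all windows alike. With ICRF-193 for 24 h the unscaled values were 3894 and 2401, against 2611 and 3259 in DMSO, also overlapping, and the change was 0.06, or 0.35 above the median window either way. At 1 h Mdm2 held 102, 98.6 and 63.2 bases per Mb with ICRF-193 and 112, 114 and 83.6 with DMSO, a log2 change of -0.19 (SE 0.22). The Brg1 tamoxifen lists had 84763 and 46431 peaks, against 107473 and 85007 in Brg1 ethanol. With equal list lengths, 2 of the 4 loci were positive after Brg1 deletion. The median change was then 0.17 over the loci and 0.13 over all windows, and no locus was called (lowest limma adjusted p 0.3167). Of 10 alternatives for the Mdm2 change after Brg1 deletion, the sign turned in 1, the unscaled fit. Beyond these fits, the part of list length in the Mdm2 values was not tested.

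Cdkn1a held 55.4 and 73.0 bases per Mb in ICRF-193 24 h libraries, against 53.3 and 35.8 in DMSO 24 h libraries, a log2 change of 0.52 (SE 0.33, limma adjusted p 0.9368). Both ICRF-193 values lay above both DMSO values, the lower one by little, and unscaled the change was 0.11. Btg2 held 114 and 109 bases per Mb in ICRF-193 24 h libraries, against 94.4 and 80.4 in DMSO 24 h libraries, without overlap (log2 change 0.36, SE 0.26, limma adjusted p 0.9368). Gadd45a held 65.9 and 60.8, against 63.5 and 60.2 in DMSO (log2 change 0.09, SE 0.30). The 4 changes at 24 h were thus 0.09 to 0.52 where the median window stood at 0.13. Unscaled they were -0.05 at Btg2 and -0.33 at Gadd45a, where the median window stood at -0.28. Against the median window, Btg2 was 0.24 higher and Gadd45a differed by -0.04, which the scaling cannot alter.

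At 1 h the log2 changes were 0.37 (SE 0.27) at Cdkn1a, 0.11 (SE 0.22) at Btg2 and 0.13 (SE 0.25) at Gadd45a. After Brg1 deletion they were 0.31 (SE 0.33) at Cdkn1a, 0.14 (SE 0.26) at Btg2 and 0.12 (SE 0.30) at Gadd45a. Without Brg1 tamoxifen replicate 2 each of these turned negative (-0.08 at Cdkn1a and -0.25 at Gadd45a), and 1 of the 4 loci, Mdm2, stayed positive. The median window then stood at 0.08. After Baf53a deletion the changes were -0.16 (SE 0.33) at Cdkn1a, -0.04 (SE 0.26) at Btg2 and 0.31 (SE 0.30) at Gadd45a. Per library, Gadd45a held 69.2 and 80.0 bases per Mb in Baf53a tamoxifen libraries, against 51.4 and 68.5 in Baf53a ethanol libraries, without overlap.

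**Figure D4:**
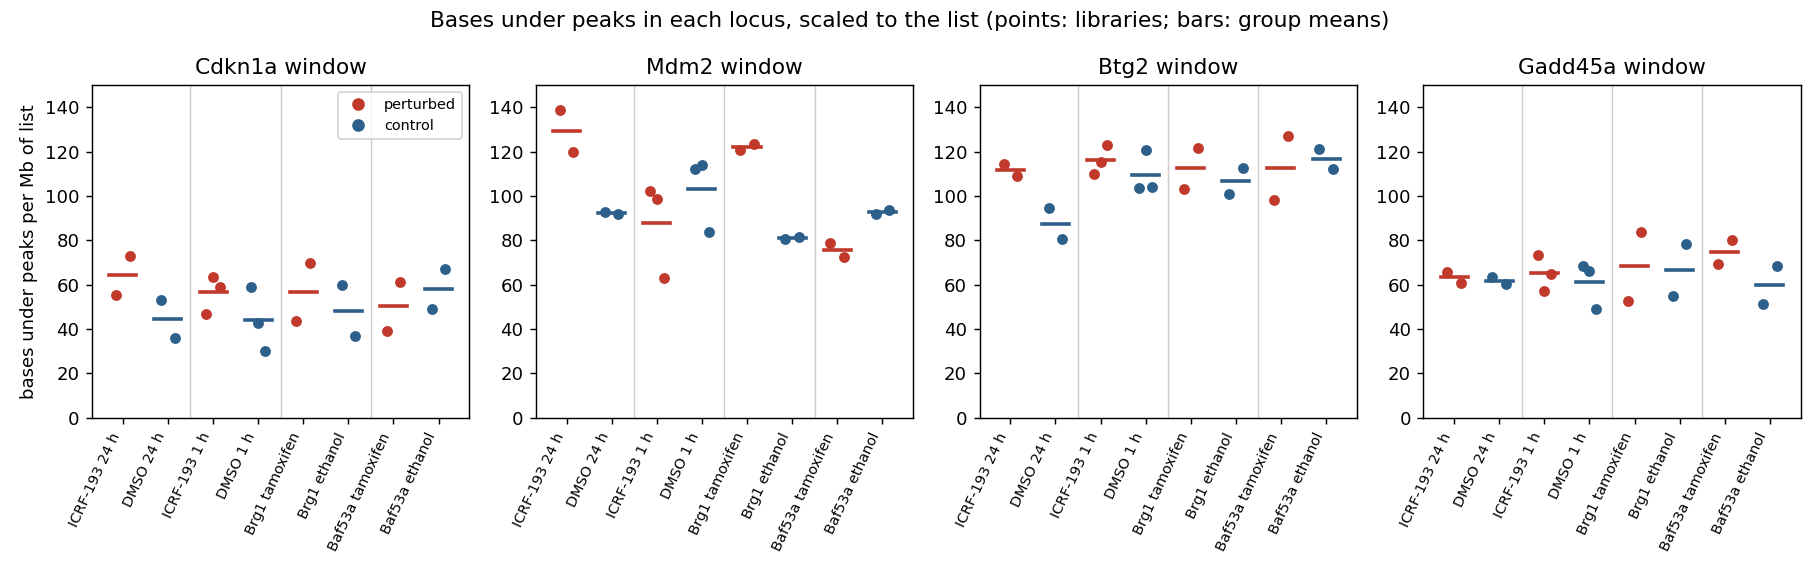
Bases under peaks in each locus per Mb of the list, by group; points are libraries, bars are group means, and each perturbed group (red) is left of its control (blue). At Mdm2 the Brg1 tamoxifen libraries (121 and 123) lie above Brg1 ethanol (80.4 and 81.5) and the Baf53a tamoxifen libraries (78.8 and 72.4) below Baf53a ethanol (91.7 and 93.8).

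The window test called 0 of the 4 loci in each contrast (limma, Benjamini-Hochberg adjusted). It called 1 of the 18285 windows (0.00547%) in the 24 h experiment and 0 (0%) in the 1 h experiment, with 0 loci at an unadjusted p under 0.05 in either. After Brg1 deletion 58 windows (0.317%; 16 higher and 42 lower) were called and 1 locus, Mdm2, had such a p (0.0285), and after Baf53a deletion 1 window (0.00547%) and 0 loci. For the differences of effects, 0 windows (0%) were called for ICRF-193 at 24 h against 1 h, with 0 loci at such a p. For Brg1 against Baf53a 2 (0.0109%) were called, with 1 locus. Of the 18285 windows, such a p was held by 960 at 24 h, 577 at 1 h, 2718 after Brg1 deletion and 694 after Baf53a deletion. For the differences of effects, in the order above, 592 and 1149 windows had it. Against such counts, 1 of 4 loci does not set the loci apart. A change at 1 of these loci that is smaller than the spread between 2 or 3 libraries would not be detectable here. Larger ones can be missed too, as the SE draws on the spread in all 8 groups and the adjustment covers all 18285 windows. At Mdm2 the Brg1 tamoxifen and ethanol values differed by far more than their SDs, each of which rests on 2 libraries. The change was not called, and its absolute size stood at percentile 77.1 among all windows. Unscaled, the groups overlapped.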

How the data were processed

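Each library gave 1 peak list, called per sample and not on pooled samples, as the deposited files show. The submitters' processing notes name mm9, MACS2, Bowtie 0.12.9 and edgeR 3.12.1 and do not say what each did. How reads were shifted and peaks thresholded is likewise not given in the sources used here. Per peak, a list holds the authors' score, which has no unit in the deposited files and was used only for ranks within a list. The authors' start and end positions (other values of the deposited files) are printed counted from 1.

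Peaks overlapping by 1 bp or more were merged over the 18 lists. A region's value in a list was its highest score, ranked among the 18061 common regions and turned into normal scores. Tests used limma 3.58.1 in R 4.3.3 over all 18 libraries (8 groups, 4 contrasts and 2 differences of contrasts, two-sided, Benjamini-Hochberg over all regions or windows, called at an adjusted p under 0.05). The script was tested on simulated data. Windows had a mean of 500 or more bases under peaks. Other steps used Python 3.11.15 with pandas 2.3.3. Members and lists were chosen with earlier results of these data known. All 4 loci are described: common regions in full, then lost and gained regions and the 3 others with the highest median percentile. Other p53 pathway genes and ES cell markers were not used here, for want of an mm9 annotation, so neither the cell type label nor the deletions were checked. Alternatives changed the merging overlap, the region set, region value, list length, scaling, added bases, window filter, replicate block and libraries left out.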

Additional observations from a re-analysis of the deposited data

How the results depend on the processing

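Over 66 alternative fits of the region places and 74 of the covered length, 0 members were called, with lowest limma adjusted p of 0.0905 (equal list lengths) and 0.0958 (replicate block). Of the values for single regions and loci under an alternative, 889 stayed within 1 SE of the reported value and 61 moved further. In 98 of these 950 values the sign was opposite to that of the reported change, over 48 of 84 results, none of which was called. The deviations of same-numbered libraries from their own group means correlated weakly but positively in every experiment, at 0.0335 to 0.127 across regions. These values are not correlations of the libraries themselves. In the 1 h experiment the deviations of each library correlated best with those of its own number. With 2 libraries a group, unlike numbers give the same value with the opposite sign and so add nothing. Whether the numbers mark pairs is not settled by these values, and the reported fits did not pair libraries. The fit with the replicate block called 0 members, and moved the number of windows called to 342 from 58 after Brg1 deletion, to 9 from 1 with ICRF-193 for 24 h and to 5 from 1 after Baf53a deletion.

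With 1 library left out at a time, counts of lost or gained members ran from 9 to 16 with ICRF-193 for 24 h (4 reported), 1 to 2 at 1 h (1 reported), 7 to 11 after Brg1 deletion (2 reported) and 6 to 11 after Baf53a deletion (1 reported), since absence then rests on fewer lists. At 24 h 16.7% to 33.3% of members were then lost (21.7% to 42.8% of all regions) and 16.7% to 29.6% gained (8.93% to 27.7%). At 1 h these shares were 0% to 5.88% (2.73% to 11.1%) and 4.76% to 8.33% (0.433% to 2.94%). After Brg1 deletion they were 11.1% to 29.2% (26.2% to 49.8%) and 5.56% to 25% (8.95% to 30.8%). After Baf53a deletion they were 12.5% to 22.2% (18.1% to 35%) and 5.26% to 20.7% (8.05% to 31%). Merging at 100 bases gave 0 lost or gained members at 1 h and 0 after Baf53a deletion, and equal list lengths gave 0 after Baf53a deletion. Leaving out both replicate 2 lists of the 1 h experiment, chosen after seeing the data, gave 2 such members. Over all alternatives, called common regions ran from 0 to 5 with ICRF-193 for 24 h (5 reported), 0 to 478 after Brg1 deletion (426), 0 to 10 after Baf53a deletion (2) and 0 to 11 for Brg1 against Baf53a (0), and called windows from 0 to 11, 0 to 342, 0 to 5 and 0 to 3 (1, 58, 1 and 2 reported), with at most 1 at 1 h and 2 for ICRF-193 at 24 h against 1 h (0 and 0). After Brg1 deletion windows split into 8 higher and 64 lower with equal list lengths and 5 and 63 by number of peaks, and unscaled 0 were called. Unknown read depth and groups of 2 or 3 limit what these lists can show.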
